A study of Mus musculus with 6 samples.

Results

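The genes described here are those of the axon guidance families, chosen by symbol: semaphorins of classes 3 to 7, plexins, neuropilins, Eph receptors, ephrins, netrins, slits and Robo receptors. There were 67 of them among the 56748 genes of the table, 64 of which encode proteins. The other 3 are antisense transcripts at Plxna4 that share its symbol's first letters, and they were at 0 in every library. RNA had been sequenced from primary airway basal stem cells of wild-type (WT) mouse trachea, grown for 4 days with small molecules, in 2 groups of 3 libraries. The cells of the first group received UK-5099, which inhibits the mitochondrial pyruvate carrier. Those of the second received Y-27632, A8301 and DMH-1, the last 2 of which block type I receptors of TGF-beta and of BMP in that order. No untreated culture was among the samples, and whether Y-27632 was also present in the UK-5099 cultures is not stated, so a value given as higher or lower compares the inhibitor conditions with each other. The age and sex of the animals are not given. Nothing says that replicates came from separate mice or cultures, so the spread between libraries, on which p-values rest, may be technical.

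Guidance cues are proteins that tell a growing axon or a migrating cell where to go, and epithelia use the same proteins to sort cells and to shape contacts between them. Semaphorins bind plexins, class 3 semaphorins with the help of neuropilins, and plexins act on small GTPases. Ephrins are tethered to the cell surface, the A type by a lipid anchor and the B type by a transmembrane stretch. They bind Eph receptor tyrosine kinases on a neighbouring cell, and signals run into both cells. Slits are secreted ligands of Robo receptors, and netrins bind DCC and UNC5 receptors.

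The plexin genes that could be tested were lower with UK-5099 without exception, the ephrin and Eph genes moved in both directions, and the ephrin gene Efna3 rose most while Slit2 and its receptor gene Robo1 fell most. Of the 67 genes, 42 reached a mean of 10 normalized counts over the 6 libraries and were tested together with all other genes (limma, 15704 genes in all). At a Benjamini-Hochberg adjusted p under 0.05, 33 of the 42 were called, against 53.8% of all genes tested. With UK-5099, 11 were higher, against 27.2% of all genes, and 22 were lower, against 26.6%. The share of members called was 78.6%, with 26.2% higher and 52.4% lower. Genes of higher counts were called more often, and among the 12271 genes averaging at least 50 normalized counts the calls came to 60.6%, of which 31.5% higher and 29.1% lower, beside 30 of 34 members of that level, 11 higher and 19 lower. After median centring, 9 members were higher and 23 lower, and the share of higher genes among all calls went from 50.6% to 39.1%. The median log2 fold change (UK-5099 minus 3 inhibitors) was -0.31 over the 42 members and 0.00 over all genes tested. Changes of at least 2-fold were called for 11 members, 3 higher and 8 lower, where 10.1% of all genes tested had such a change, 4.67% higher and 5.48% lower. Libraries of the groups did not overlap for 35 of the 42, against 60.8% of all genes. In bulk RNA, fewer cells of a type and less RNA per cell cannot be told apart.

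**Figure D1:**
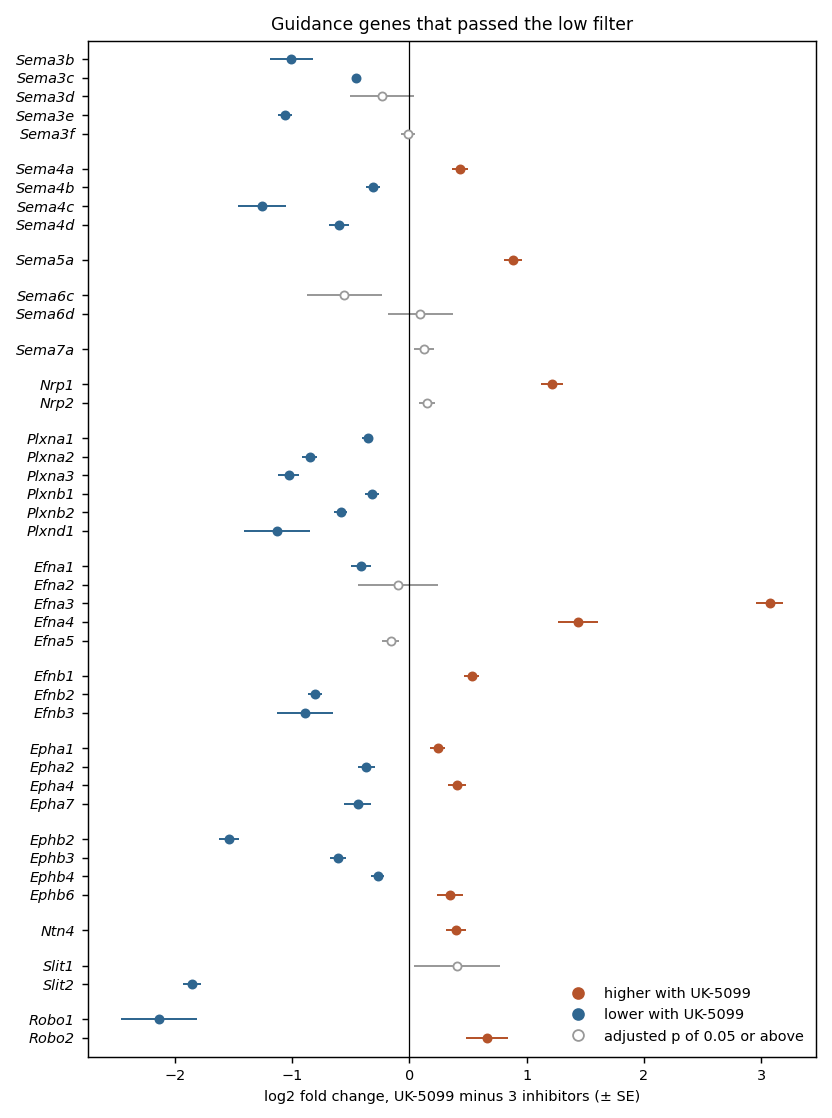
Log2 fold change (UK-5099 minus 3 inhibitors, bars ± SE of the limma fit) of the 42 guidance genes tested, grouped by family from semaphorins at the top to Robo receptors at the bottom. Orange points mark 11 genes higher and blue points 22 genes lower with UK-5099, and open grey points 9 that did not pass the test. All 6 plexins lie left of 0, and Efna3 lies farthest to the right at 3.07.

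The remaining 25 genes fell below the low filter. Of the protein-coding genes, Epha5, Epha10, Sema3g, Slit3, Ntn5 and Plxna4 had no read in any library, for which 3 reads, or 2.68 to 3.65 normalized counts in a library, is the limit that a count of 0 allows. The other 16 were Epha3, Epha6, Epha8, Ephb1, Sema3a, Sema4f, Sema4g, Sema5b, Sema6a, Sema6b, Plxnb3, Plxnc1, Ntn1, Ntn3, Robo3 and Robo4, and none of them had more than 13 reads in a library. Robo4, a receptor of endothelial cells, and Sema3a, the best-known repellent of axons, were among them.

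Among the ephrin-A genes, which encode the lipid-anchored ligands, Efna3 and Efna4 were higher with UK-5099 and Efna1 was lower, although the 3 lie side by side on chromosome 3. Efna3 had 409, 399 and 402 normalized counts in UK-5099 replicates 1 to 3, and 46.4, 43.8 and 51.2 in the 3-inhibitor replicates. Every UK-5099 library was several times above every 3-inhibitor library, and the libraries of a group lay close together. The fitted difference was 8.42-fold (log2 fold change 3.07 ± 0.11, SE, adjusted p = 2.82e-09, limma), the largest of all members. Efna4 had 176, 127 and 135 normalized counts with UK-5099 and 59.8, 45.6 and 53.9 with the 3 inhibitors, again with no overlap, and was 2.71-fold higher (adjusted p = 2.56e-05). UK-5099 replicate 1 stood above the other 2 of its group. Efna1, first described as a gene induced by tumour necrosis factor in endothelial cells, went the other way, from 929.7, 851 and 829 normalized counts with the 3 inhibitors to 666.5, 573.5 and 732 with UK-5099, a log2 fold change of -0.41 ± 0.09 (adjusted p = 0.00169). The groups did not overlap, although UK-5099 replicate 3 and 3-inhibitor replicate 3 came near each other. Efna5 (log2 fold change -0.16, adjusted p = 0.0833) and Efna2 (-0.10, adjusted p = 0.838), the latter at only 17.3 ± 6.58 normalized counts with UK-5099 (SD, n = 3), did not pass the test. Efna5 passed it after median centring and without UK-5099 replicate 3 (adjusted p = 0.0123 in each case, in a range over the alternatives from 0.0123 to 0.26).

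Levels of different genes were compared per kb of exon, since longer transcripts give more reads. With the 3 inhibitors, Efna1 led the ephrin-A genes at 475 normalized counts per kb, followed by Efna5 at 157, Efna4 at 33.2 and Efna3 at 19.4. With UK-5099, Efna1 still led at 359, but Efna3 came next at 166, near Efna5 at 141, and Efna4 stood at 91.3. Efna3 thereby made up 21.8 ± 1.7% of the summed ephrin-A level with UK-5099 but 2.8 ± 0.26% with the 3 inhibitors (SD, n = 3). A two-sided exact permutation test gave p = 0.1, the smallest that 3 against 3 can give, here and for each share below. The summed ephrin-A level was 765 ± 61.7 normalized counts per kb with UK-5099 and 693 ± 32.3 with the 3 inhibitors, groups that overlapped (two-sided exact permutation test, p = 0.2).

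The neighbours of these genes did not share one direction. In the order of RefSeq (assembly GRCm38.p6), no protein-coding gene lies between Efna1 and Efna3 or between Efna3 and Efna4. Next to Efna4, Adam15, a membrane metalloprotease, was 1.54-fold higher with UK-5099 (means 606 ± 51.2 and 394 ± 33.1 normalized counts, SD, adjusted p = 8.57e-05). Beyond it, Dcst1 (log2 fold change 0.30) and Dcst2 (-0.26), both under 20 normalized counts on average, did not pass the test. On the side of Efna1, the sugar transporter gene Slc50a1 was 1.46-fold higher (adjusted p = 7.10e-05), Dpm3 (0.34, adjusted p = 0.055) and Krtcap2 (0.04, adjusted p = 0.51) did not pass, and Trim46 was lower (-0.27, adjusted p = 0.0278). Muc1, which lies beyond Trim46, fell by 4.84 on the log2 scale. None of these neighbours rose by as much as Efna3 or Efna4. Transcripts on the opposite strand overlap 14.1% of the exon bases of Efna3 and 10.5% of those of Efna4, and they averaged 2.12 and 4.05 normalized counts. The neighbours were looked at after the values of the ephrin genes had been seen.

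**Figure D2:**
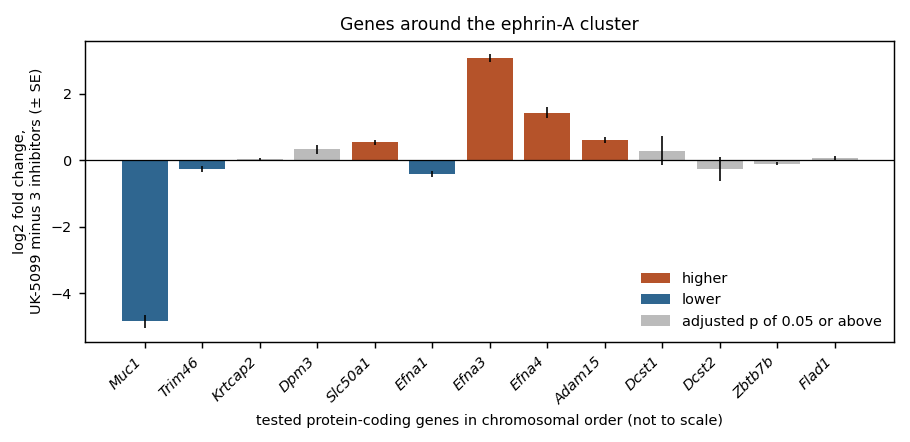
Log2 fold change (UK-5099 minus 3 inhibitors, bars ± SE) of the tested protein-coding genes around the ephrin-A genes, in their order along the chromosome with equal spacing. Efna3 (3.07) and Efna4 (1.44) stand above the line, Efna1 (-0.41) next to them below it, and Muc1 at the left edge falls to -4.84.

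The stretch around the start of each of the 3 neighbours is shown because they share a place in the genome but not a direction (RefSeq, GRCm38.p6, 250 bases before to 50 after the most upstream listed start, 5′ to 3′). Capitals mark the SMAD box CAGAC or its reverse complement GTCTG, the letters that SMAD proteins downstream of TGF-beta and BMP receptors are known to bind.
Efna1, chr3:89280902-89281201, minus strand: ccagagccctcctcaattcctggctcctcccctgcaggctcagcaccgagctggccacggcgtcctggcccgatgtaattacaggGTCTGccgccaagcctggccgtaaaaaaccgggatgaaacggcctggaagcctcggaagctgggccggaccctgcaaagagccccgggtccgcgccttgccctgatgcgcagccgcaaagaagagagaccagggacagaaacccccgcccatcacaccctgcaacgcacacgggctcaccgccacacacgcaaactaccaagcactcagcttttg
Efna3, chr3:89322890-89323189, minus strand: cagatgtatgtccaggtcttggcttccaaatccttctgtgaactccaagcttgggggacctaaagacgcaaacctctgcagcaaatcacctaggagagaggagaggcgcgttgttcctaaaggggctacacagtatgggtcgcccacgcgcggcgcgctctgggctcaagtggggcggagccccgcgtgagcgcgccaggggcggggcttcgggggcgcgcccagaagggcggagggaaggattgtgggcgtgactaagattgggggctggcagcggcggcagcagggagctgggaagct
Efna4, chr3:89337979-89338278, minus strand: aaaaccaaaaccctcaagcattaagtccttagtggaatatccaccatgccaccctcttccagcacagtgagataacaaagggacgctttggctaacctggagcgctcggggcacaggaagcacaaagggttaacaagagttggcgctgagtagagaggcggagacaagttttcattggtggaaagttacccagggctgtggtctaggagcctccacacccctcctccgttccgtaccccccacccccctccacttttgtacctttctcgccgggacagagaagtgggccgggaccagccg
The box occurred once before the Efna1 start and in neither of the other windows. It is common, being present in 49.7% of 27025 promoter windows of the same length, and in 33 of the 56 guidance genes that had a window. A GC-rich SMAD element, GGCGCC, was in none of the 3, and in 3241 of all windows. GC content was 63.7% for Efna1, 64.0% for Efna3 and 55.7% for Efna4, against a median of 52.7% over all windows.

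The ephrin-B genes changed places. Efnb1, the X-linked ligand gene, had 1081, 1007 and 1099 normalized counts with UK-5099 and 783, 686 and 734 with the 3 inhibitors, and was 1.45-fold higher (log2 fold change 0.53 ± 0.06, adjusted p = 2.54e-05). Efnb2, known for marking arterial vessels and for roles in epithelial boundaries, had 1191, 1164 and 1342 with UK-5099 and 2092, 2165 and 2184 with the 3 inhibitors, and was 1.75-fold lower (adjusted p = 4.47e-07). Neither gene's groups overlapped. Per kb of exon, Efnb2 was above Efnb1 with the 3 inhibitors (313 against 213 normalized counts per kb) and below it with UK-5099 (179.8 against 308). Efnb1 held 61.9 ± 1.5% of the summed ephrin-B level with UK-5099 but 39.1 ± 1.8% with the 3 inhibitors (SD, two-sided exact permutation test, p = 0.1). The sum itself differed less, at 497 ± 28.2 and 544 ± 11.3 normalized counts per kb. Efnb3, the least abundant of the 3, was lower with UK-5099 (mean 31.5 ± 9.15 normalized counts with UK-5099, 57.9 ± 7.92 with the 3 inhibitors, SD, log2 fold change -0.89 ± 0.24, adjusted p = 0.00818).

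Efnb1 and the plexin gene Plxna3 are the tested members on the X chromosome, and the groups also differed in sex-linked RNA. With UK-5099, Xist, the RNA of X inactivation, rose to 24276 ± 1528 normalized counts from 14246 ± 129 (SD, n = 3), while 4 genes of the Y chromosome (Uty, Ddx3y, Eif2s3y, Kdm5d) were lower, the least by 1.52-fold and the most by 2.15-fold. Efnb1 was higher and Plxna3 lower with UK-5099. The part of the animals' sex in these differences was not tested.

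Of the 14 Eph receptor genes, 8 were tested and all 8 were called, 3 higher and 5 lower with UK-5099. Over all genes tested 53.8% were called, and 60.6% of those averaging at least 50 normalized counts. Ephb2, a receptor for B ephrins best known for sorting cells along the intestinal crypt, changed most. It had 647, 603 and 643 normalized counts with the 3 inhibitors and 196, 221 and 234 with UK-5099. The groups stood far apart, and Ephb2 was 2.91-fold lower (log2 fold change -1.54 ± 0.08, adjusted p = 5.44e-08, limma). Ephb3, its close relative and the most abundant EphB gene, had 2652, 2594 and 2741 normalized counts with the 3 inhibitors and 1728, 1569 and 1947 with UK-5099, without overlap, and was 1.53-fold lower (adjusted p = 1.49e-05). Ephb4, the partner of Efnb2 in blood vessels, was 1.21-fold lower (adjusted p = 0.00105). Ephb6, which encodes a receptor without kinase activity, was 1.27-fold higher (mean 210.2 ± 19.1 normalized counts with UK-5099, 165 ± 11.8 with the 3 inhibitors, SD, adjusted p = 0.0187). The call of Ephb6 ended after median centring (adjusted p = 0.062) and without UK-5099 replicate 1, 3-inhibitor replicate 1 or 3-inhibitor replicate 2 (adjusted p = 0.0867, 0.0557 and 0.0714), in a range over the alternatives from 0.00929 to 0.0867. Ephb2 held 3.4 ± 0.34% of the summed EphB level with UK-5099 but 7.14 ± 0.22% with the 3 inhibitors (two-sided exact permutation test, p = 0.1). That sum was 507 ± 29.7 against 701 ± 18.9 normalized counts per kb, with no overlap of the libraries (two-sided exact permutation test, p = 0.1).

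EphA genes changed by less than 1.5-fold. Epha2, the main Eph receptor of many epithelia and of keratinocytes, had 7567, 7460.0 and 7429.7 normalized counts with the 3 inhibitors and 5677, 5184 and 6644 with UK-5099. All 3 UK-5099 libraries were lower, but they were spread more widely than the 3-inhibitor libraries, and the log2 fold change was -0.37 ± 0.07 (adjusted p = 0.0011). Epha1 and Epha4 were higher with UK-5099, by 1.18-fold and 1.33-fold (adjusted p = 0.00811 and 9.15e-04). Epha7 was lower (log2 fold change -0.44 ± 0.11, adjusted p = 0.00601). The call of Epha1 ended after median centring (adjusted p = 0.0624) and in a fit without a variance trend (adjusted p = 0.0548), in a range from 0.000364 to 0.0624. Epha1 overlaps Zyx on the opposite strand over 6.0% of its exon length, and Zyx itself was 1.47-fold lower with UK-5099 (adjusted p = 8.67e-06). Whether reads were counted by strand is not stated, so reads of the shared bases cannot be told apart. Per kb, the order Epha2, Epha1, Epha4, Epha7 was the same in both groups, from 1248 down to 24 normalized counts per kb with UK-5099 and from 1601.5 down to 32.8 with the 3 inhibitors. Epha2 took 63 ± 0.6% and 72.5 ± 0.22% of the summed EphA level (SD over 3 libraries, two-sided exact permutation test, p = 0.1), and the sums themselves overlapped between the groups (two-sided exact permutation test, p = 0.3).

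**Figure D3:**
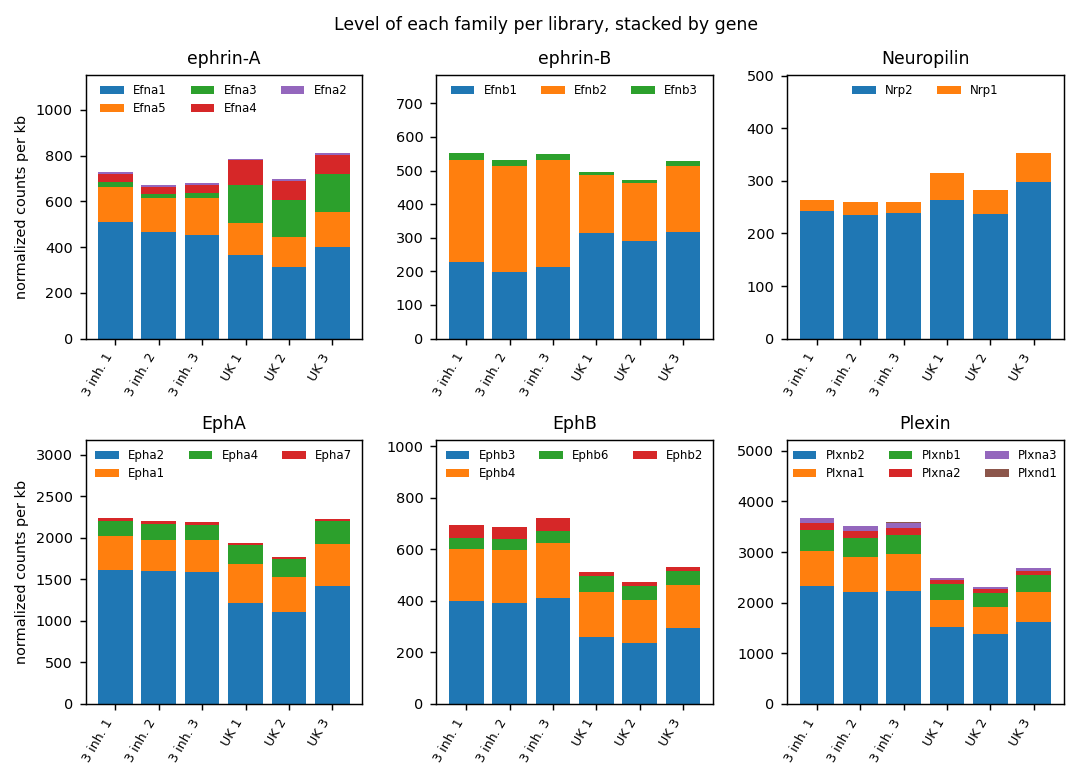
Stacked levels (normalized counts per kb of merged exons) in each of the 6 libraries for ephrin-A, ephrin-B, neuropilin, EphA, EphB and plexin genes, with genes under 1 per kb on average left out of the stacks. Efna3 and Efna4 fill more of the ephrin-A bars with UK-5099, Efnb1 and Efnb2 exchange rank, and the plexin and EphB bars are shorter in all 3 UK-5099 libraries.

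Semaphorins are the ligands of plexins. There were 13 to test, and 6 of them fell, 2 rose and 5 did not pass, so the 8 of 13 called were near the share of all genes called (53.8%, and 60.6% of those averaging at least 50 normalized counts). In class 3, the secreted semaphorins, Sema3c was the most abundant, with 5957, 6035 and 5900.5 normalized counts with the 3 inhibitors and 4380.0, 4411 and 4288 with UK-5099. The libraries of each group differed by little and the groups did not overlap, with Sema3c 1.37-fold lower (log2 fold change -0.45 ± 0.04, adjusted p = 1.29e-06, limma). Sema3e, which binds Plxnd1 without a neuropilin, had 962, 997 and 948 normalized counts with the 3 inhibitors and 445, 464 and 487 with UK-5099. It was 2.08-fold lower in groups far apart (adjusted p = 7.20e-08). Sema3b, a gene lost in many human lung cancers, had 157, 125 and 119.7 with the 3 inhibitors and 72.1, 51 and 76.7 with UK-5099, a 2.01-fold difference without overlap (adjusted p = 6.22e-04). Sema3f, a ligand of Nrp2 that lies nearby and is also lost in human lung cancers, did not pass the test (means 1235 ± 86.1 and 1241 ± 45.2 normalized counts, SD, log2 fold change -0.01 ± 0.06, adjusted p = 0.914). Neither did Sema3d (-0.24 ± 0.27, adjusted p = 0.496). The summed class 3 level was 914.5 ± 12.7 normalized counts per kb with UK-5099 and 1209 ± 16.2 with the 3 inhibitors (two-sided exact permutation test, p = 0.1).

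Class 4 semaphorins span the membrane. Sema4b led them, with 1599, 1589 and 1706.5 normalized counts with the 3 inhibitors and 1281, 1246 and 1427 with UK-5099, which was lower in every library (1.24-fold, adjusted p = 9.03e-04). Sema4d, a ligand of Plxnb1 also known as CD100 on lymphocytes, had 977, 820.4 and 908 with the 3 inhibitors and 588, 532 and 665 with UK-5099. Both groups were spread, yet did not overlap (1.52-fold lower, log2 fold change -0.60 ± 0.09, adjusted p = 1.27e-04). Sema4c, a ligand of Plxnb2, was scarcer, with 86.6, 92 and 85 normalized counts with the 3 inhibitors and 28.4, 47.3 and 35.3 with UK-5099, without overlap. It was 2.38-fold lower with UK-5099, whose 3 libraries differed among themselves by more than the 3-inhibitor libraries did (adjusted p = 2.91e-04). Sema4a went the other way and was 1.35-fold higher (mean 493 ± 10.3 normalized counts with UK-5099, 365 ± 4.85 with the 3 inhibitors, SD, adjusted p = 1.75e-04).

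Sema5a, a transmembrane semaphorin with thrombospondin repeats, was the other semaphorin that was higher. It had 1141, 1082 and 1251 normalized counts with UK-5099 and 696, 581 and 610.2 with the 3 inhibitors. The lowest UK-5099 library was well above the highest 3-inhibitor library, and the difference was 1.84-fold (log2 fold change 0.88 ± 0.08, adjusted p = 2.15e-06). Class 6 semaphorins were near the floor. The most abundant, Sema6d, had 33.5, 35.3 and 39 normalized counts with UK-5099 and 22.7, 49.1 and 33.8 with the 3 inhibitors, with overlapping groups, and neither it nor Sema6c passed the test (adjusted p = 0.804 and 0.17). Sema7a, the lipid-anchored semaphorin that can signal through integrins, had 280.4, 261 and 272 normalized counts with UK-5099 and 250.5, 247.5 and 248 with the 3 inhibitors. Its groups did not overlap, but the difference was small (0.12 ± 0.08) and did not pass the test (adjusted p = 0.234).

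The neuropilins, co-receptors of class 3 semaphorins and of VEGF, differed from each other. Nrp1 had 499, 445.5 and 554 normalized counts with UK-5099 and 206, 231.5 and 204 with the 3 inhibitors. Each UK-5099 library was far above each 3-inhibitor library, and Nrp1 was 2.33-fold higher (log2 fold change 1.22 ± 0.10, adjusted p = 1.02e-06). Nrp2, the more abundant neuropilin, had 3125, 2809 and 3517 with UK-5099 and 2865.5, 2792 and 2839 with the 3 inhibitors. UK-5099 replicate 2 lay within the 3-inhibitor range, and Nrp2 did not pass the test (0.15 ± 0.07, adjusted p = 0.0874). It passed after upper-quartile rescaling, with the replicate number as a block, and without UK-5099 replicate 2 (adjusted p = 0.0311, 0.047 and 0.00334), in a range over the alternatives from 0.00334 to 0.495. Nrp1 made up 16.1 ± 0.088% of the summed neuropilin level with UK-5099 but 8.37 ± 0.65% with the 3 inhibitors (SD, two-sided exact permutation test, p = 0.1).

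All 6 plexin genes that were tested, Plxna1, Plxna2, Plxna3, Plxnb1, Plxnb2 and Plxnd1, were lower with UK-5099, and the groups overlapped for none of them. Over all genes tested, 26.6% were called lower, and the groups did not overlap for 60.8%. The plexin genes were lower under every scaling that was run. Plxnb2, a receptor of class 4 semaphorins, was the most abundant, with 17980.5, 17064 and 17256 normalized counts with the 3 inhibitors and 11739.9, 10652 and 12544.5 with UK-5099. It was 1.5-fold lower (log2 fold change -0.58 ± 0.06, adjusted p = 4.69e-06). Plxna2 had 2167, 2217 and 2435.5 with the 3 inhibitors and 1208, 1208 and 1366.5 with UK-5099, a 1.8-fold difference (adjusted p = 5.38e-07). The 3 UK-5099 libraries lay together, well below the other group. Plxna3, the X-linked plexin that works with neuropilins, had 789.6, 805 and 772 with the 3 inhibitors and 342, 375 and 448 with UK-5099 and was 2.04-fold lower (adjusted p = 2.16e-06). Plxna1 and Plxnb1 fell by less (log2 fold change -0.36 ± 0.05 and -0.32 ± 0.06, adjusted p = 6.72e-05 and 8.02e-04). Plxnd1, a receptor for Sema3e known from blood vessels, was scarce and was 2.18-fold lower (mean 23.4 ± 8.46 normalized counts with UK-5099, 50.3 ± 5.88 with the 3 inhibitors, SD, adjusted p = 0.0051). Per kb, Plxnb2, Plxna1 and Plxnb1 held the first 3 places in both groups. The summed plexin level was 2499.6 ± 188.5 normalized counts per kb with UK-5099 and 3594 ± 77.8 with the 3 inhibitors (two-sided exact permutation test, p = 0.1).

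**Figure D4:**
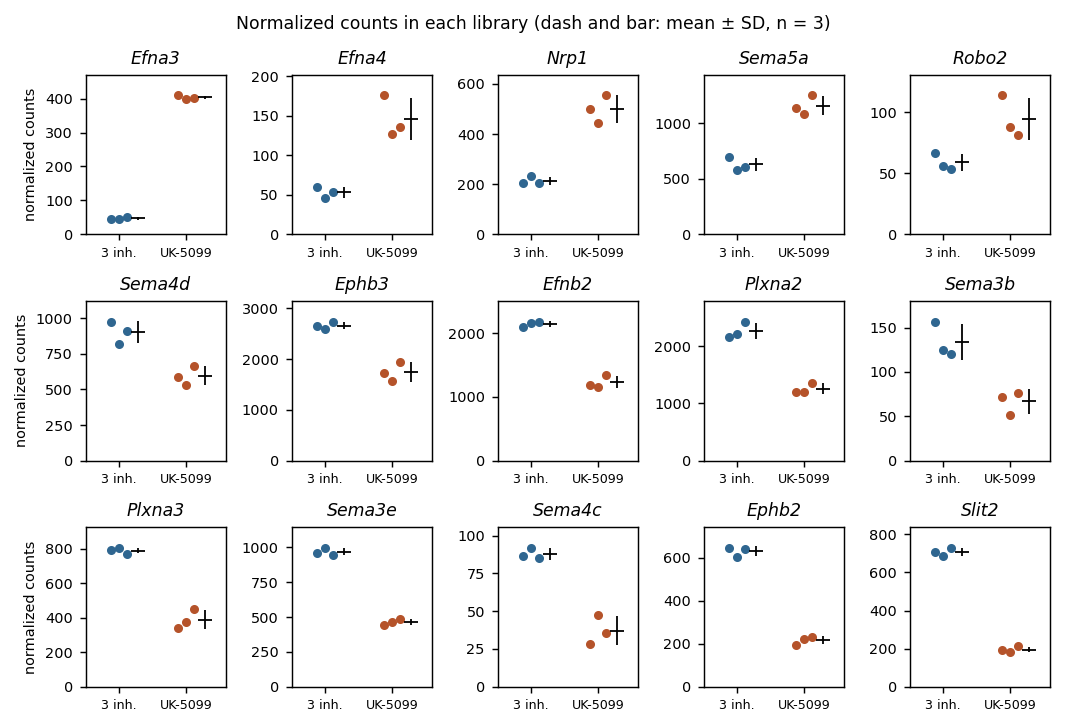
Normalized counts in each library (points; dash and bar, mean ± SD, n = 3) for the 15 guidance genes called with a change of at least 1.5-fold and a mean of at least 50 normalized counts, ordered from the largest rise to the largest fall, with a separate axis from 0 for each gene. In none of the 15 panels do the 3 blue points (3 inhibitors) and the 3 orange points (UK-5099) overlap. The genes were picked by their calls in these same libraries, and 60.8% of all genes tested did not overlap either. A change of at least 1.5-fold was called for 21.7% of all genes tested, whatever their mean.

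Slit2, a secreted repellent, showed the largest fall among the members with at least 50 normalized counts on average. It had 709, 684 and 729 normalized counts with the 3 inhibitors and 192, 182 and 212 with UK-5099. Libraries within a group differed by little beside the gap between the groups, and Slit2 was 3.61-fold lower (log2 fold change -1.85 ± 0.08, adjusted p = 8.74e-09, limma). Slit1 was near the low filter and did not pass the test (adjusted p = 0.38). The receptors differed in direction although Robo1 and Robo2 are neighbours on chromosome 16. Robo1 had 56.7, 46.5 and 50.2 normalized counts with the 3 inhibitors and 11.2, 6.5 and 17.1 with UK-5099, without overlap, and was 4.4-fold lower (log2 fold change -2.14 ± 0.32, adjusted p = 1.70e-04). Robo2 had 114, 88.2 and 81.6 with UK-5099 and 67, 56.3 and 53.9 with the 3 inhibitors, and was 1.58-fold higher (adjusted p = 0.00762). UK-5099 replicate 1 was the highest, and the groups did not overlap. Robo3, a receptor that in mouse commissural neurons modulates slit responses, had only 11.2, 12.1 and 15.8 normalized counts with UK-5099 and 3.1, 1.8 and 5.5 with the 3 inhibitors, and was below the low filter. Without that filter it was called higher with UK-5099 (log2 fold change 1.73 ± 0.51, adjusted p = 0.0142). Ntn4, a netrin of basement membranes, was the one netrin gene above the low filter. It had 596, 502 and 589.5 normalized counts with UK-5099 and 465, 393 and 423 with the 3 inhibitors, higher in every library by a small margin (1.32-fold, adjusted p = 0.00251).

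The start regions of Nrp1, Slit2 and Ephb2, a co-receptor, a secreted ligand and a receptor that each changed more than 2-fold and were chosen after their values were seen, are shown for comparison with those above (RefSeq, GRCm38.p6, same window, SMAD box in capitals). Nrp1 was higher and Slit2 and Ephb2 were lower with UK-5099.
Nrp1, chr8:128358823-128359122, plus strand: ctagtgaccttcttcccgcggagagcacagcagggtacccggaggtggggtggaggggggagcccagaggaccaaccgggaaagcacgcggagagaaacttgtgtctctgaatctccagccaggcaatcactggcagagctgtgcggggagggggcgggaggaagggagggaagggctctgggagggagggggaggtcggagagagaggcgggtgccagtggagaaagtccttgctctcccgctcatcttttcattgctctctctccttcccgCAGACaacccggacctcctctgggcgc
Slit2, chr5:47982905-47983204, plus strand: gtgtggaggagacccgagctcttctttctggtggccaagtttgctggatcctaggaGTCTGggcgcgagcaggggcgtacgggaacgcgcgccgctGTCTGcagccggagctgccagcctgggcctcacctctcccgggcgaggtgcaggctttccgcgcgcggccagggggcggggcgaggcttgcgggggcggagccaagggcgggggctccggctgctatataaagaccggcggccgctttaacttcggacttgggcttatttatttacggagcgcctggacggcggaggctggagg
Ephb2, chr4:136835963-136836262, minus strand: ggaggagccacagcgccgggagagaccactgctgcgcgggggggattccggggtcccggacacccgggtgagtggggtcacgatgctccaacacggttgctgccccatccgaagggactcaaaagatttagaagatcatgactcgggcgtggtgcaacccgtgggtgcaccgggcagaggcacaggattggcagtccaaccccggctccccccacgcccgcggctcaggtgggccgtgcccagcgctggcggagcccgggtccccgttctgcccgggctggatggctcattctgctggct
The box occurred once for Nrp1, after the start, and 2 times for Slit2, before the start, and not for Ephb2. Neither GGCGCC nor the AP-1 site TGANTCA, the hypoxia core form ACGTG or the TEAD site GGAATG was in any of the 6 windows shown. Each was searched on both strands, and the GCGTG form of the hypoxia core was not searched. Of all windows the AP-1 site was in 7.9%, the ACGTG form in 19.6% and the TEAD site in 14.7%. Of the 56 guidance windows, 1 had the AP-1 site, 10 the ACGTG form and 7 the TEAD site. GC content was 64.0% for Nrp1, 68.0% for Slit2 and 68.7% for Ephb2.

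Receptors and co-receptors around the netrins were taken from a list of 18 genes, 11 of which were tested, with 2 higher and 5 lower. The 7 of 11 called were near the background of 53.8%. Unc5a, a netrin receptor that repels axons, had 254, 222.5 and 226 normalized counts with the 3 inhibitors and 31.5, 28.8 and 37.8 with UK-5099, and was 7.01-fold lower (adjusted p = 5.30e-08). Dcc, the attractive netrin receptor, was scarce (mean 1.58 ± 1.92 normalized counts with UK-5099, 21.7 ± 7.77 with the 3 inhibitors, SD, adjusted p = 4.70e-04), and its UK-5099 mean lay under the worth of 3 reads. Neo1, the Dcc relative that also binds RGM proteins, was 1.63-fold lower (adjusted p = 1.48e-07). Flrt3, an adhesion protein that binds UNC5 and Robo receptors, and Chl1, a relative of L1CAM that binds neuropilin, were 3.11-fold and 3.41-fold higher (adjusted p = 2.45e-08 and 3.71e-08). Flrt1 was lower (-0.63 ± 0.23, adjusted p = 0.0349), a call that ended without the low filter (adjusted p = 0.0642), without UK-5099 replicate 2 or 3 (0.0829 and 0.0728) and without 3-inhibitor replicate 1 or 2 (0.125 and 0.0984), in a range from 0.0178 to 0.125. Unc5b, at a mean of 4383 normalized counts over the 6 libraries, did not pass the test (log2 fold change -0.09, adjusted p = 0.174).

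Cytoplasmic partners of these receptors were both higher and lower. Of 30 genes of plexin and Robo signalling, 28 were tested, 11 higher and 7 lower, so 18 of 28 were called, near the 53.8% of all genes tested, with a median log2 fold change of 0.03. Farp1, a guanine nucleotide exchange factor that acts with plexins, was 2.13-fold lower (adjusted p = 3.11e-07), Erbb2, a receptor kinase that associates with B plexins, 1.7-fold lower (adjusted p = 1.52e-06), and Srgap3, a GTPase-activating protein that binds Robo, 1.71-fold lower (adjusted p = 2.56e-07). Dpysl5, of the CRMP family that relays semaphorin signals, was 2.65-fold higher with a mean of 36.4 ± 3.44 normalized counts beside 13.1 ± 1.57 (SD, adjusted p = 6.02e-04). Mical1 was also higher (0.91 ± 0.30, adjusted p = 0.0222), but not without UK-5099 replicate 1 (adjusted p = 0.0999), 3-inhibitor replicate 2 (0.0655) or 3-inhibitor replicate 3 (0.077), in a range from 0.00658 to 0.0999. The 11 higher genes became 6 after median centring, 6 without 3-inhibitor replicate 2 and 5 without 3-inhibitor replicate 3. Of 21 genes of Eph and ephrin signalling, 19 were tested, 5 higher and 10 lower (median -0.20), so 15 of 19 were called. Over all genes tested, 53.8% were called, 27.2% higher and 26.6% lower. The share called was 60.6% among genes averaging at least 50 normalized counts. Inppl1, a lipid phosphatase that binds Epha2, was 1.95-fold lower and Vav2, a guanine nucleotide exchange factor, 1.64-fold lower (adjusted p = 1.17e-07 and 4.12e-05). Ngef, the exchange factor ephexin-1 that acts downstream of EphA receptors, was 1.81-fold higher, and the phosphatase gene Acp1 1.5-fold higher (adjusted p = 6.91e-05 and 2.13e-06).

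Blood vessels and connective tissue use the same guidance genes, so markers of other cell types were read beside them. Of the airway basal markers Krt5, Krt14, Krt15 and Trp63, which define the labelled cell type, the lowest was Trp63, at a mean of 3242 ± 86 normalized counts with the 3 inhibitors. The summed level of 7 airway basal markers ran from 259724 to 280872 normalized counts with UK-5099 and from 119709 to 131634 with the 3 inhibitors. Krt5 and Krt14 carried that difference, 5 of the 7 markers were higher, Ngfr was 4.59-fold lower (adjusted p = 4.32e-07), and Krt15 did not pass the test (log2 fold change -0.07, adjusted p = 0.303). Among 9 endothelial markers, Cdh5, Emcn and Cldn5 were at 0 in all libraries, Pecam1 and Kdr had means under 2 normalized counts, and the sum ran from 106.0 to 136.4 with UK-5099 and from 209.2 to 227.8 with the 3 inhibitors, with Vwf and Tie1 lower. Of the other tested endothelial markers, Egfl7 (log2 fold change 0.48, adjusted p = 0.102) and Tek (0.08, adjusted p = 0.866) did not pass the test. The endothelial sum was lower in every UK-5099 library, and Vwf made up most of the difference. Of 7 fibroblast markers, Col1a2 and Lum were at 0, Pdgfra, Pdgfrb, Col1a1 and Dcn were below the low filter, and the sum, nearly all of it Fbln1, ran from 413.9 to 501.9 and from 274.1 to 306.1. Of 6 leukocyte markers, Cd68 passed the filter, Ptprc had a mean under 1 normalized count in each group, Lyz2 had 0.309 ± 0.536 with UK-5099 and 13.7 ± 6.06 with the 3 inhibitors, and the sum ran from 487.2 to 695.4 and from 492.4 to 528.8. The part of cells other than epithelium in the guidance genes was not tested. The 6 libraries held between 19909589 and 27037795 gene reads.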

How the data were processed

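RNA of 6 libraries, 3 per group by their titles, had been sequenced. Per the labels' protocols, libraries were prepared with the VAHTS Universal V8 kit. Per the submitters' processing notes, the build was GRCm39 and the tools named, without roles, were DESeq2 1.36.0 and HISAT2 2.1.0. Which program counted reads, and whether by strand, is not given in the sources used here. In the deposited table each value is the log2 of gene counts divided by a size factor per library, as the authors' file and its values show, and zeros are replaced by a text mark.

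Values were raised back to normalized counts, the mark read as 0, and 359 repeated rows dropped. Between 99.988% and 99.992% of nonzero values were whole multiples of 1 read to within 0.02, so reads were recovered. Genes averaging 10 or more normalized counts were fitted as log2 of the normalized count plus 1 with limma 3.58.1 in R 4.3.3 (trend, two-sided, no covariates), with Benjamini-Hochberg adjustment over all 15704 genes, and checked on simulated data. A fold is 2 to the power of the fitted difference and understates changes of low genes. The members and lists were chosen with earlier results of these data known. Values in every library are given for members called with a change of at least 1.5-fold and a mean of at least 50, and for the highest of each family. Up to 6 called genes of at least 1.5-fold are named per list. Exon lengths and overlaps came from GENCODE M21 (GRCm38) by gene identifier, promoters from RefSeq by symbol (56 of 67 matched). The alternatives were 2 rescalings, 2 low filters, 2 pseudocounts, 2 variance settings, limma-voom on recovered reads, a replicate block, a lower threshold, a 2-fold minimum and each library left out. The alternatives for list genes and for exon length were chosen after seeing the data. The glial and neuronal marker list and 1 pathway list are not reported here. Python 3.11.15, pandas 2.3.3, numpy 2.4.6 and matplotlib 3.10.9 were used.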

Additional observations from a re-analysis of the deposited data

How the results depend on the processing

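The members called numbered 33 (11 higher, 22 lower), and from 30 to 34 under the alternatives other than a 2-fold minimum, with 9 to 12 higher and 19 to 23 lower. With each library left out in turn they numbered 32 to 34, with 10 to 12 higher and 22 to 23 lower, and all genes called 7351 to 9126, with 3716 to 4596 higher and 3603 to 4530 lower. A minimum change of 2-fold left 11 members (3 higher, 8 lower) and, of 8449 genes in all, 1593 (733 higher, 860 lower). Of the 33 calls, 31 held in every one of up to 16 refits that kept the gene, and those of Epha1 and Ephb6 did not. No called member reversed its sign. Uncalled members did: the Sema3f log2 fold change (-0.01) went to 0.021 after upper-quartile rescaling and, with each library left out, ranged from -0.054 to 0.046, Sema6d from -0.18 to 0.36 and Efna2 from -0.33 to 0.23. The cause was not tested. Median centring moved the median of all genes by -0.09 and the share of higher calls over all genes from 50.6% to 39.1%, and over the members from 33.3% to 28.1%.

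No pairing by replicate number was seen: deviations of same-numbered libraries correlated at -0.02, 0.12 and -0.09. Those of differently numbered libraries correlated between -0.20 and 0.19. With 3 libraries per group this check cannot exclude a pairing. The list of netrin receptors had 3 lower genes in place of 5 at a minimum mean of 50. That filter removes Dcc and Flrt1, which averaged 11.6 and 41.5 normalized counts over the 6 libraries. The replicate block gave 34 members (12 higher, 22 lower), and 8423 genes in all. Using the longest coding transcript in place of merged exons moved the difference in share to 10.5 percentage points for Nrp1 (from 7.73) and to -3.375 for Ephb2 (from -3.74). Left-out libraries moved the differences in share between 21.995 and 23.8 percentage points for Efnb1, 18.0 and 19.7 for Efna3, 7.54 and 8.10 for Nrp1, -3.89 and -3.56 for Ephb2, and -9.88 and -9.32 for Epha2. Fits that leave out a library assume that the remaining 2 of its group vary like the other 3. Depth limits the members below the filter, where 3 reads are worth up to 3.65 normalized counts.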
